A study of Homo sapiens with 3 samples.

Results

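The genes described here belong to the EGFR (ErbB) family of growth factor receptors: the receptors EGFR, ERBB2, ERBB3 and ERBB4, the ligands TGFA, HBEGF, EREG, BTC and AREG, and ERRFI1, an inhibitor of the receptors. They were taken by name, as every probe set that the platform annotation gives to 1 of these 10 genes alone. A probe set is a group of array probes that reads 1 stretch of transcript and yields 1 value per library. Of the 10 genes, 9 had such a probe set, 32 in all, out of 45253 probe sets and 18239 genes in the series. EGFR had 8, ERBB2 had 5, TGFA and EREG had 4 each, ERBB3 and ERBB4 had 3 each, HBEGF and BTC had 2 each, and ERRFI1 had 1. No probe set was annotated to AREG, which was therefore not analysed here.

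RNA was from GFP-SAS cells, derived from the human tongue carcinoma cell line SAS, after 24 h with 10 nM of siRNA, double-stranded RNA that leads the cell to cut mRNAs of matching sequence. One siRNA against AKT1, siAkt1-22, was used in 1 library and another, siAkt1-58, in 1 library, and the non-targeting siRNA siNT served as control in 1 library. The siAkt1 libraries carry the same genotype label and formed 1 group of 2, set against the single siNT library, so every spread given here comes from the siAkt1 libraries and holds whatever differs between the siRNAs. The labels do not say whether the libraries came from separate cultures, nor what the GFP in the name stands for.

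As background, ligands of this family are made as membrane-anchored precursors, and metalloproteases such as ADAM17 cut them loose. A bound ligand brings receptors together in pairs, the pairs phosphorylate each other, and the signal runs through adaptors to the RAS-ERK and PI3K-AKT cascades. AKT1 therefore lies downstream of these receptors. ERBB2 has no known ligand of its own and ERBB3 has little kinase activity, so each works mainly through its partner. Squamous carcinomas of the head and neck often carry high EGFR levels, and TGFA and HBEGF can act on the same cells that release them.

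AKT1 itself was checked first. Its brightest probe set read 3.67 with siAkt1-22 and 3.47 with siAkt1-58, against 6.75 with siNT on the log2 scale. Array medians were 4.59 (siAkt1-22), 4.58 (siAkt1-58) and 4.59 (siNT), and with 3 arrays every value below has limited precision. The siAkt1-22 library stood apart more often than the others: 680 of 12779 genes were at least 2-fold from both other libraries there, against 256 for siAkt1-58 and 244 for siNT. For that reason each result is given per siRNA, and the siAkt1-58 value is the result without siAkt1-22. The labelled epithelial origin was set against marker genes. Of the 7 squamous and epithelial markers measured, 6 read above the filter level of 3.93, EPCAM at 11.7 with siAkt1-22, 11.3 with siAkt1-58 and 11.4 with siNT, while KRT14 was below it in all 3 libraries. Of the fibroblast, immune and endothelial markers, 1 of 6, 1 of 5 and 2 of 5 reached the filter level. The immune one was CD68, a macrophage marker that other cells also express, with 6.75 with siAkt1-22 and 7.14 with siAkt1-58, against 6.33 with siNT, while PTPRC, the pan-leukocyte marker, read 2.89 in each library. The part of CD68 in the results was not tested.

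The ligand TGFA was lower with both siRNAs. It alone of the 9 measured family genes was at least 2-fold from siNT on the same side with each, by the brightest probe set. Of all genes tested, 1.17% were at least 2-fold lower with both. With its probe sets averaged, TGFA was at -0.59. HBEGF was lower with both as well, by less in its brighter probe set and at -0.60 with its probe sets averaged. In RNA from a whole culture, fewer cells of a kind and less RNA per cell cannot be told apart. The receptor ERBB3 was higher with siAkt1-22, by 1.66, 0.99 and 0.02 in its 3 probe sets. EGFR was higher with siAkt1-58 by 0.997 and 0.95 in 2 of its 8 probe sets and by at most 0.16 in the others. Log2 differences are written as siAkt1 minus siNT, so that -1 is a 2-fold lower value.

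**Figure D1:**
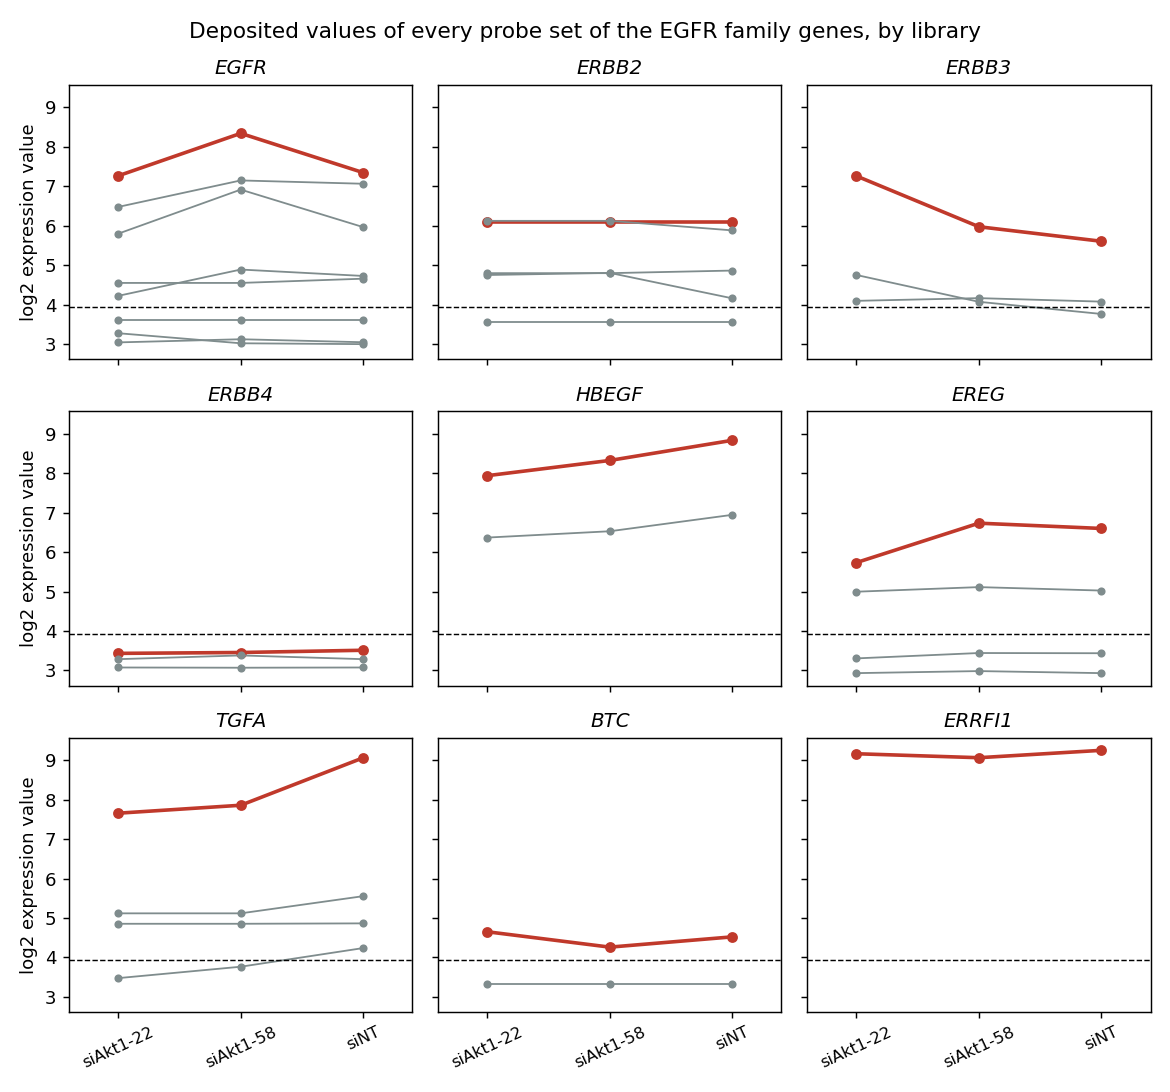
Log2 expression value (vertical axis) of every probe set of 9 EGFR family genes in the libraries siAkt1-22, siAkt1-58 and siNT (horizontal axis). Each line joins the values of 1 probe set, red for the brightest probe set of the gene and grey for the others, and the dashed line marks the filter level of 3.93. TGFA and HBEGF sit lower in both siAkt1 libraries, and ERBB4 lies under the dashed line throughout. In the brightest probe set, ERBB3 is highest with siAkt1-22 and EGFR is highest with siAkt1-58.

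Among the ligands, TGFA encodes transforming growth factor alpha, which binds EGFR. Its brightest probe set read 7.66 with siAkt1-22 and 7.86 with siAkt1-58, against 9.06 with siNT. Both siAkt1 values lay below the siNT value and within 0.20 of each other. Relative to siNT, TGFA was lower by 2.65-fold (siAkt1-22) and by 2.30-fold (siAkt1-58), a mean log2 difference of -1.31 ± 0.14 (SD, n = 2). Its other probe sets gave smaller differences, all on the same side: -0.44 and -0.44 in the next brightest, -0.01 and -0.01 in the third, and -0.76 and -0.47 in the dimmest, whose mean lay below the filter level. In the next brightest and the third, the siAkt1 libraries held exactly the same value, so they do not give separate readings there. When the 4 probe sets were averaged, the difference was -0.59 and no longer reached 2-fold.

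HBEGF, heparin-binding EGF-like growth factor, binds EGFR and ERBB4. Its brighter probe set read 7.94 with siAkt1-22 and 8.32 with siAkt1-58, against 8.84 with siNT. Its other probe set read 6.37 with siAkt1-22 and 6.53 with siAkt1-58, against 6.95 with siNT. In both probe sets siNT was the highest library and siAkt1-22 the lowest. The brighter one was below siNT by 1.86-fold (siAkt1-22) and by 1.43-fold (siAkt1-58), a mean log2 difference of -0.70 ± 0.27 (SD, n = 2). That probe set carries the platform's _s suffix, which marks probes shared by more than 1 transcript, often of different genes.

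EREG, epiregulin, is a low-affinity ligand of EGFR and ERBB4. Its brightest probe set read 5.73 with siAkt1-22 and 6.73 with siAkt1-58, against 6.60 with siNT. Only the siAkt1-22 library was low, 1.82-fold below siNT, and the siAkt1-58 value stood 0.13 above it, so the siAkt1 values lay on both sides of siNT. The next EREG probe set, also above the filter level, showed little of this, with differences of -0.03 and 0.09. BTC, betacellulin, read 4.65 with siAkt1-22 and 4.26 with siAkt1-58, against 4.52 with siNT, again on both sides of siNT, and its other probe set read 3.32 in all 3 libraries. Of all 12 ligand probe sets, 6 were below siNT with both siRNAs and 0 were above it with both. Over all 45253 probe sets these shares were 18.7% and 24.2%. The 6 belonged to TGFA and HBEGF alone, and probe sets of 1 gene read the same transcripts.

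The upstream stretches of the ligand genes that differed from siNT are shown because TGFA and HBEGF were lower together and EREG only with siAkt1-22. Each is the 250 bases before the annotated start, from RefSeq on GRCh38.p14, read 5′ to 3′ along the gene's strand, with motif matches in capitals. TGFA lies on chr2:70553827-70554076 (minus strand), HBEGF on chr5:140346604-140346853 (minus strand) and EREG on chr4:74364895-74365144 (plus strand).
TGFA: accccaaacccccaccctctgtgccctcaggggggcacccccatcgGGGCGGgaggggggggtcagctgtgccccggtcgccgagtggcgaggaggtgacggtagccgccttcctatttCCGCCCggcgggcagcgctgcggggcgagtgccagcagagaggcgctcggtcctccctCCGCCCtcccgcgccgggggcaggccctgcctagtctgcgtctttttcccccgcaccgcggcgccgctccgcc
HBEGF: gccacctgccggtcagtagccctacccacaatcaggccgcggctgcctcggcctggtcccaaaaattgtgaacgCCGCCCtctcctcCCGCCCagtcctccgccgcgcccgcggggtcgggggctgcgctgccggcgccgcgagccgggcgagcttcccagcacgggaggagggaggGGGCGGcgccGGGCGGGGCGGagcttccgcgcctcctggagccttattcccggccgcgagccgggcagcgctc
EREG: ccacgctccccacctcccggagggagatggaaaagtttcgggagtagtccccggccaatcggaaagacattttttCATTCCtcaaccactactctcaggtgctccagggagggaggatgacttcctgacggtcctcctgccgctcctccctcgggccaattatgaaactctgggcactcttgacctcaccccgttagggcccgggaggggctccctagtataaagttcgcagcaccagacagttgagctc

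Both strands were searched for GGGCGG (the core of an SP1 site), TGACTCA (AP-1), TGACGTCA (cAMP response element) and GGAATG (TEAD), and a promoter table of 35116 windows of the same length served as background. The TGFA window shown held 3 matches to GGGCGG or its reverse complement CCGCCC and the HBEGF window held 5, of which 2 share 1 base. A second TGFA window in the table, before another annotated start (chr2:70553447-70553696, minus strand, GC content 64%), held no match to any of the 4 motifs. EREG held none of these but 1 match to CATTCC, the reverse complement of GGAATG. Of all windows, 42.6% held the SP1 letters and 11.9% the TEAD letters. Elsewhere in the family, windows of EGFR (2 matches), ERBB4 (1), ERRFI1 (1) and AREG (1) held the SP1 letters. Those of BTC and ERBB2 and a second EGFR window did not. That second EGFR window held 2 AP-1 matches and 1 TEAD match, and 4.2% of all windows held the AP-1 letters. Neither the AP-1 nor the cAMP letters were found in the windows shown. The GC content of the windows shown was 75.6% for TGFA, 76.4% for HBEGF and 58% for EREG.

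Of the receptors, ERBB3 showed the highest difference. ERBB3 binds neuregulins and, once phosphorylated, recruits PI3K. Its brightest probe set read 7.26 with siAkt1-22 and 5.97 with siAkt1-58, against 5.60 with siNT. Both siAkt1 values were above siNT, siAkt1-22 by 3.15-fold and siAkt1-58 by 1.29-fold. The mean log2 difference was 1.01 ± 0.91 (SD, n = 2), with the siRNAs 1.29 apart. A dimmer ERBB3 probe set read 4.75 with siAkt1-22 and 4.07 with siAkt1-58, against 3.76 with siNT, but its siNT value lay below the filter level, which it passed only through the siAkt1 libraries. The dimmest differed by 0.02 and 0.09. With the 3 probe sets averaged, the ERBB3 difference was 0.57. The brightest ERBB3 probe set has the _x suffix, given to sets with probes that may also hybridise to other sequences.

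EGFR, the receptor for most of these ligands, read 7.26 with siAkt1-22 and 8.34 with siAkt1-58, against 7.34 with siNT in its brightest probe set. Here the siAkt1-58 library was high, just under 2-fold above siNT (log2 0.997), and siAkt1-22 was within 0.08 of siNT. Another probe set gave the same picture, with differences of -0.17 and 0.95. The second brightest, which carries the _s suffix, did not. It read 6.47 with siAkt1-22 and 7.15 with siAkt1-58, against 7.06 with siNT, so siAkt1-22 was low and siAkt1-58 close to siNT. A dimmer one (4.22 and 4.89 against 4.72) resembled this second pattern. In all 4 of these probe sets siAkt1-22 was below siNT and siAkt1-58 above it, and they differed in which library lay near siNT. The fifth above the filter level gave -0.11 with each siRNA, the siAkt1 values being exactly equal. The 3 below the filter level differed from siNT by at most 0.28.

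ERBB2, the partner receptor without a ligand of its own, read 6.09 in all 3 libraries in its brightest probe set, an exact tie. Exact ties of all 3 libraries were found in 20.6% of probe sets, and in 4 of the 32 of this family. The second ERBB2 probe set was nearly as bright and stood 0.24 above siNT with each siRNA, the siAkt1 values being exactly equal. The fourth read 4.75 with siAkt1-22 and 4.80 with siAkt1-58, against 4.16 with siNT, so both siAkt1 values were higher there, by 0.59 and 0.65. The remaining ones were at -0.07 and -0.07, again with equal siAkt1 values, and tied in all 3 libraries. ERBB4, the neuregulin receptor known from heart and nerve, read between 3.07 and 3.51 in its 3 probe sets and stayed below the filter level in every library, where differences cannot be read. ERRFI1, also called MIG6, binds the EGFR kinase domain and is induced by the pathway it restrains. It read 9.17 with siAkt1-22 and 9.07 with siAkt1-58, against 9.25 with siNT, differences of -0.09 and -0.19. The only ERRFI1 probe set also carries the _s suffix.

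**Figure D2:**
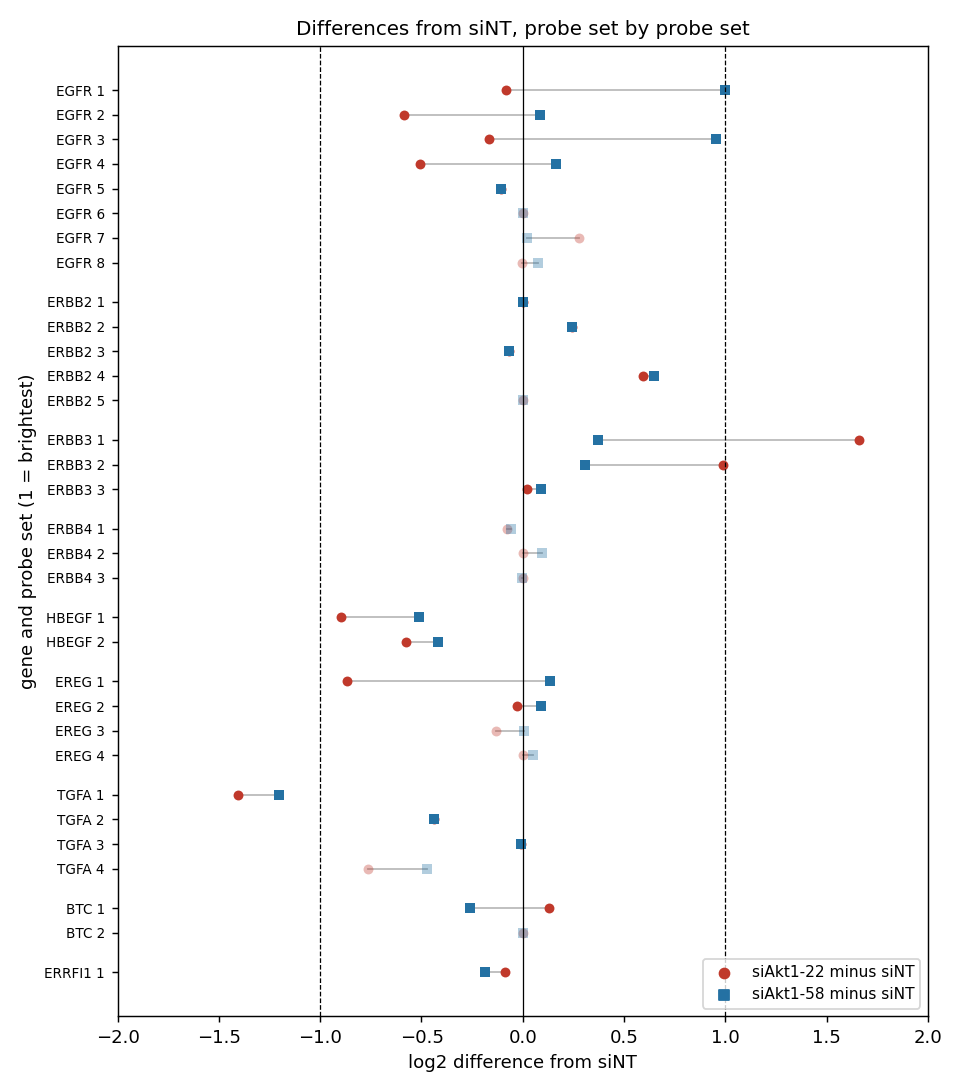
Log2 difference from siNT (horizontal axis) for each of the 32 probe sets (vertical axis, numbered from the brightest down within a gene), with red circles for siAkt1-22 minus siNT and blue squares for siAkt1-58 minus siNT. Pale symbols mark probe sets with a mean below the filter level of 3.93, dashed lines mark 2-fold, and a blue square alone covers a red circle at the same value. The TGFA and HBEGF symbols lie left of 0 for both siRNAs, whereas EGFR and EREG symbols of the brightest probe set fall on either side.

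Set against all genes, with the brightest probe set standing for each, 1 of the 8 family genes tested (TGFA) was at least 2-fold lower with both siRNAs, as were 1.17% of the 12779 genes tested, and no family gene (0) was 2-fold or more above siNT with both, against 0.736%. With siAkt1-22 alone, ERBB3 was at least 2-fold higher (4.40% of genes) and TGFA at least 2-fold lower (5.97%). With siAkt1-58 alone, TGFA was at least 2-fold lower (3.58%) and no family gene reached 2-fold higher (1.54%), EGFR falling just short. The median difference of the 8 genes was -0.08 with siAkt1-22 and -0.09 with siAkt1-58, beside 0 and 0 over all genes tested. The differences with either siRNA share the siNT library.

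By limma's moderated test of the siAkt1 libraries against siNT, no family gene passed an adjusted p of 0.05, and neither did any other gene (0%). TGFA had the lowest p of the family, with a log2 difference of -1.31, a standard error of 0.15, an unadjusted p of 0.0295 and an adjusted p of 0.614 by limma. It was the 1 family gene of 8 with an unadjusted limma p under 0.05, a level met by 954 genes or 7.47%. HBEGF had an adjusted p of 0.830 by limma and ERRFI1 one of 0.913, and the other 5 had an adjusted p of 1. The fit has 1 residual degree of freedom, so a p that misses the threshold does not show that a gene kept its level.

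**Figure D3:**
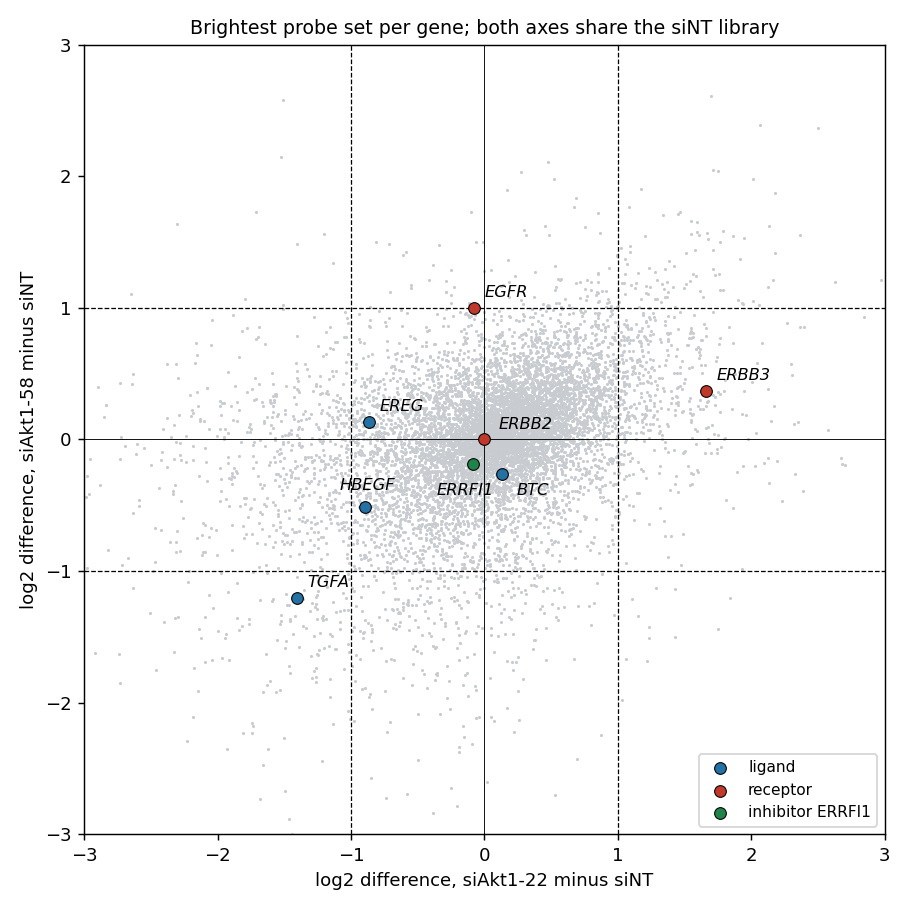
Log2 difference from siNT with siAkt1-22 (horizontal axis) and with siAkt1-58 (vertical axis) for the brightest probe set of each gene tested, in grey, with 4 ligands in blue, 3 receptors in red and ERRFI1 in green. Dashed lines mark 2-fold, both axes share the siNT library, and 32 genes beyond a log2 difference of 3 are not drawn. TGFA lies in the lower left beyond both dashed lines, ERBB3 at the right edge of the family and EGFR at the upper dashed line.

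A direct comparison of siAkt1-22 with siAkt1-58 has 1 library on each side and so no test. Of the 8 family genes, 3 were at least 2-fold apart between the siRNAs, as were 10.3% of all genes tested. ERBB3 was 1.29 higher on the log2 scale with siAkt1-22 than with siAkt1-58, while EGFR (-1.08) and EREG (-1.0) were lower with siAkt1-22. TGFA (-0.20), HBEGF (-0.39), ERRFI1 (0.10) and BTC (0.39) were closer together. AKT1 readings in the siAkt1 libraries were 0.20 apart and below the filter level in its brightest probe set. Another AKT1 probe set read 4.07 with siAkt1-22 and 4.02 with siAkt1-58, against 5.31 with siNT, so the siAkt1 libraries were 0.05 apart there and above that level. In the siAkt1-22 library the actin gene ACTB, chosen after its values were seen, read 9.03 with siAkt1-22 and 12.3 with siAkt1-58, against 12.1 with siNT, and the part of this library's other deviations in the family's differences was not tested.

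Other genes of the pathway were described from 5 lists, with counts and medians only. Targets of ERK signalling, genes that growth factors switch on within hours, split by siRNA. Of 15 measured, 13 were below siNT with siAkt1-22 (35.7% of all genes tested) and 11 were above siNT with siAkt1-58 (45.6%). Their median difference was -0.63 with siAkt1-22 and 0.18 with siAkt1-58. DUSP6, an ERK phosphatase, read 7.94 with siAkt1-22 and 10.2 with siAkt1-58, against 9.81 with siNT. PHLDA1 read 8.72 with siAkt1-22 and 10.4 with siAkt1-58, against 9.99 with siNT. These were the 2 of 15 ERK targets at least 2-fold lower with siAkt1-22, beside 5.97% of all genes tested, and both were named after their values were seen. Below siNT with both siRNAs were the ERK phosphatase DUSP4 (-0.64 and -0.54), the AP-1 subunit FOSL1 (-0.36 and -0.56) and the ETS factor ETV4 (-0.63 and -0.29). They were 3 of 15, beside 2739 of the 12779 genes tested that were below siNT with both. FOS was the 1 gene of 15 above siNT with both (0.39 and 0.02), beside 3945 of the 12779 genes tested. Its dimmer probe sets gave 0.92 and -0.39, 0.52 and -0.005, and 0.28 and 0.03. DUSP4 was the 1 target of 15 with an unadjusted limma p under 0.05, beside 7.47% of all genes tested, and none passed after adjustment by limma.

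**Figure D4:**
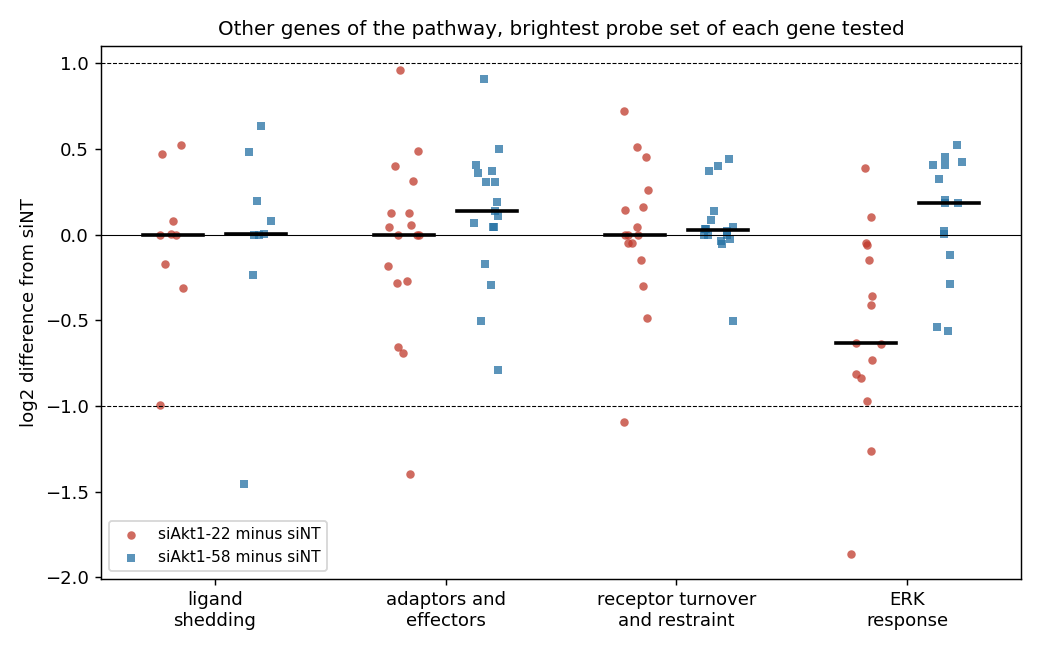
Log2 difference from siNT (vertical axis) of the genes tested in 4 pathway lists (horizontal axis), with red circles for siAkt1-22 and blue squares for siAkt1-58. Black bars are medians, dashed lines mark 2-fold, and points are spread sideways for legibility. The ERK response list has its median at -0.63 with siAkt1-22 and at 0.18 with siAkt1-58, and the other medians lie between 0 and 0.14.

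The proteases and helpers that release ligands gave medians of 0 with both siRNAs over 9 genes tested. ADAM12, a protease that can cut HBEGF, read 6.19 with siAkt1-22 and 5.73 with siAkt1-58, against 7.19 with siNT. Both siAkt1 values were lower, by -0.996 and -1.46, and a second ADAM12 probe set gave -1.25 and -1.14 while 3 dimmer ones gave -0.28 to 0.02. ADAM17, the main sheddase of TGFA, was at -0.17 and -0.24. RHBDF2, a partner that ADAM17 needs for maturation, was at 0.52 and 0.64 in its brightest probe set and tied in the other two, and the sheddase ADAM15 was at 0.47 and 0.48. ADAM10 was at 0.08 with each siRNA, the siAkt1 values being exactly equal.

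Adaptors and effectors had medians of 0 and 0.14 over the 17 tested of 24 listed, and the other 7 were not analysed here. The phosphatase PTPN11 (SHP2), which relays receptor signals to RAS, read 7.60 with siAkt1-22 and 8.69 with siAkt1-58, against 8.99 with siNT. It was the 1 gene of 17 at least 2-fold lower with siAkt1-22 (5.97% of all genes tested), and 0 were at least 2-fold higher with it (4.40%) or 2-fold from siNT with siAkt1-58 (1.54% higher and 3.58% lower). Other PTPN11 probe sets above the filter level gave smaller differences, -0.23 and -0.11, and -0.51 and -0.26. PLCG1 was at -0.28 and -0.51. The kinases MAP2K2 (0.40 and 0.41) and SRC (0.49 and 0.30) and the RAS exchange factor SOS2 (0.13 and 0.91) were above siNT with both. Genes of receptor turnover and restraint had medians of 0 and 0.03 over 16 genes. The ubiquitin ligase CBLB, which marks active receptors for degradation, was at 0.72 and 0.44, the endocytic adaptor EPN1 at 0.45 and 0.40 (0.09 and 0.08 in another probe set), and HGS at 0.14 and 0.09. The ligase CBL (-0.15 and -0.50), EPS15 (-0.05 and -0.06) and PTPN1 (-0.49 and -0.04) were below siNT with both. STAM, a sorting adaptor for receptors in endosomes named after its values were seen, was at -1.09 and 0.03 (-0.63 and 0.03 in another probe set). Across these lists, 0 genes were at least 2-fold from siNT on the same side with both siRNAs in the brightest probe set. Over all genes tested the shares were 0.736% higher and 1.17% lower. ADAM12 fell just short by this rule and was beyond 2-fold with both in its second probe set (-1.25 and -1.14). None passed limma after adjustment, in these lists or over all genes tested.

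The genes most like TGFA and ERBB3, the family members with the largest mean differences, were found by the distance between pairs of differences from siNT over the 3 libraries. With so few libraries many genes lie close. CCNE1, a G1/S cyclin, was nearest to TGFA (-1.36 with siAkt1-22 and -1.21 with siAkt1-58), followed by MIG7 (-1.36 and -1.14) and the zinc transporter SLC30A1 (-1.47 and -1.26). LCP1, an actin-bundling protein, was nearest to ERBB3 (1.68 and 0.36), followed by the collagen gene COL8A1 (1.71 and 0.34) and the kinase VRK3 (1.68 and 0.29).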

How the data were processed

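The deposited table holds log2 expression values per probe set, 1 column per library, for 49386 probe sets. A 3′ in vitro transcription kit was used on 10 ng of total RNA, per the labels' protocols, and RMA, which corrects background, equalises arrays and summarises probes, is named without version in the submitters' processing notes. The range of the deposited values, 2.20 to 13.4, gave the scale as log2. The sources used here name no genome build or scan batch.

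Probe sets with 1 gene symbol in the platform annotation were kept (45253), those with several (1327), unlisted (2713) or control (93) were left out, and symbols were updated through Entrez identifiers where possible (45172). The brightest probe set stood for its gene, and the 12779 genes whose mean reached the 30th percentile (3.93) were tested. The test was a two-sided limma fit (version 3.58.1, R 4.3.3, lmFit then eBayes) with Benjamini-Hochberg adjustment over those genes and a threshold of 0.05. Its p-values reflect spread between these libraries, which may be technical. The steps were tested on simulated data.

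The family genes, lists and motifs were chosen with earlier results of these data known. Named by rule were all family probe sets, up to 3 genes at each end of a list by the smaller difference, and the 3 nearest genes to 2 members. Alternatives were averaged probe sets, median centring, quantile normalization, other filters, a 1.5-fold limit, an eBayes trend and each siAkt1 library left out. Sequences of 9 of the 10 genes matched the promoter table. Protein sequences were not used here.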

Additional observations from a re-analysis of the deposited data

Results flagged for a closer look

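EGFR and EREG stood out because the siAkt1 libraries lay on opposite sides of siNT and at least 2-fold apart from each other in the brightest probe set. EGFR was lower with siAkt1-22 than with siAkt1-58 by a log2 difference of -1.08, with readings of 7.26 and 8.34 against 7.34 with siNT. EREG was lower with siAkt1-22 by -1.0, with readings of 5.73 and 6.73 against 6.60 with siNT. The EGFR value with siAkt1-22 was close to siNT (-0.08), and the next EREG probe set gave -0.03 and 0.09. Over all genes tested, 10.3% were at least 2-fold apart between the siRNAs. The share that also lay on opposite sides of siNT was not counted. With 1 library per siRNA neither difference was tested.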

How the results depend on the processing

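Averaging the probe sets of each gene left 0 family genes at least 2-fold lower with both siRNAs, since TGFA then stood at -0.59, and gave 43 genes at least 2-fold higher and 99 genes at least 2-fold lower over all genes, in place of 94 and 150. It also placed ERBB3 at 0.57 in place of 1.01, EGFR at 0.06 in place of 0.46, EREG at -0.09 in place of -0.37, BTC at -0.03 in place of -0.07 and ERBB2 at 0.16 in place of 0. A 1.5-fold limit gave 409 higher and 458 lower genes. Leaving out each siAkt1 library in turn left 197 to 562 genes higher, 457 to 763 lower, 0 to 1 family genes higher (ERBB3 with siAkt1-22 alone) and 1 to 1 lower (TGFA). The sign then depended on the library for EGFR (-0.081 to 0.997), EREG (-0.87 to 0.13) and BTC (-0.26 to 0.13). With other scaling and under either filter setting, TGFA was again the 1 family gene at least 2-fold lower with both. Limma passed 0 genes in each direction under all 6 alternative fits, with 485 to 1803 genes at an unadjusted p under 0.05. Leaving out a siAkt1 library leaves no residual degrees of freedom, so no test was run there. No paired analysis was possible with 1 siNT library beside 2 siAkt1 libraries, and the labels give no replicate numbers. Values near the filter level may understate differences, which was not tested.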

Other observations

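The other ERBB ligands, named after their values were seen, were mostly dim. EGF, EPGN, NRG3 and NRG4 lay below the filter level, with EGF probe sets between 2.68 and 3.12 and EPGN probe sets between 2.60 and 3.67 in every library. NRG1, a ligand of ERBB3 and ERBB4, read 5.66 in all 3 libraries in its brightest probe set. NRG2 read 3.43 with siAkt1-22 and 4.84 with siAkt1-58, against 3.72 with siNT, and it passed the filter only through siAkt1-58, the other values being below the filter level.

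EPGN, EREG, AREG and BTC follow each other in that order among the protein-coding genes of chromosome 4 in RefSeq. EPGN lay below the filter level, EREG was at -0.87 and 0.13, and BTC at 0.13 and -0.26. The window upstream of AREG held 1 match to TGACGTCA, as did 1.65% of all windows, and AREG itself was not analysed here.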
